A study of Mus musculus with 10 samples.

Results

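The genes described here build, supply and load major histocompatibility complex (MHC) molecules in mouse spermatogonial stem cell cultures. They were taken as every transcript cluster of the array whose gene symbols all begin with H2-, together with the clusters of B2m, Tap1, Tap2, Tapbp, Tapbpl, Psmb8, Psmb9, Psmb10, Psme1, Psme2, Nlrc5, Erap1, Cd74, Ciita, Ctss and Ifi30. A transcript cluster is the set of probes that the array design summarises into 1 value. This gave 70 of the 28856 clusters in the table, with 52 distinct symbol entries. Of the 70, 1 is the class I light chain, 2 are classical class I heavy chains, 23 are other class I heavy chains, and 5 act in peptide transport, trimming and loading. A further 5 are immunoproteasome and PA28 subunits, 19 belong to the class I transactivator Nlrc5, 1 to the class II transactivator Ciita and 12 to class II presentation. The 2 that remain, H2-Ke2 (a prefoldin subunit) and H2-Ke6 (a hydroxysteroid dehydrogenase), lie in the complex and carry its prefix but are not MHC molecules.

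The study followed the establishment of germline stem (GS) cell cultures from adult DBA/2 testis on Affymetrix Mouse Gene 1.0 ST arrays, with 5 groups of 2 arrays each. Cells at 0 weeks were testis cells purified on magnets with an antibody to CD9, a surface protein of spermatogonia that other testis cells also carry. The groups at 1, 2 and 3 weeks held such cells after that time in an Iscove-based medium with human FGF2, rat GDNF and fetal bovine serum, and the last group held established DBA/2 GS cells grown in the same medium. No genotype change or drug is given for any group, and the labels name no feeder cells. Nor do they tell whether the arrays of a group had different animals or cultures as their source. A p-value here thus sets a group difference only against the spread between arrays of a group, estimated over the 5 groups together. That spread may be technical.

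MHC class I molecules pair a polymorphic heavy chain with the light chain B2m and show peptides from inside the cell to CD8 T cells and natural killer cells. Those peptides are cut by the proteasome, which interferon can rebuild with the subunits Psmb8, Psmb9 and Psmb10 and cap with PA28, are pumped into the endoplasmic reticulum by Tap1 and Tap2, trimmed there by Erap1 and fitted with the help of tapasin. Class II molecules show peptides from endosomes to CD4 T cells, are normally made by macrophages, dendritic cells and B cells, and need the invariant chain Cd74. Spermatogonia and other germ cells of the testis are known for low surface class I.

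Values are the deposited array signals on a linear scale. The lower quartile of all clusters lay between 59.46 and 73.65 and the median between 112 and 125.3 over the 10 arrays, and no background level was available. Of the 70 member clusters, 23 lay above the array median on all 10 arrays, 30 on none, and 11 lay at or below the lower quartile on all 10. Probes follow the C57BL/6 sequence (H2b haplotype) whereas DBA/2 mice carry H2d, so probes of polymorphic H2 genes may bind less well here, and levels of different clusters are not set against each other. Clusters that carry several H2 symbols cannot assign their signal to 1 gene. The arrays also hold RNA of whole cell samples, in which fewer cells of a type and less RNA per cell cannot be told apart.

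Summed signals of marker lists describe each sample but do not measure the share of a cell type. The 13 spermatogonial markers summed to between 5978 and 6052 at 0 weeks and between 14399 and 15036 in GS cells, where 12 of 13 lay above the array median. The 5 spermatid markers summed to between 23818 and 24262 at 0 weeks, with all 5 above the median, and to between 586 and 771 at 1 week. The 4 Leydig cell markers summed to between 6288 and 6302 at 0 weeks and between 455 and 494 at 1 week. The 6 Sertoli cell markers summed to between 3132 and 3350 at 0 weeks and between 1211 and 1247 at 1 week. Markers of later germ cells and of somatic testis cells were thus present beside those of the labelled stem cells at 0 weeks. The 10 fibroblast and mesenchyme markers summed to between 5898 and 6800 at 0 weeks and to between 27789 and 28219 at 1 week. They then stood between 4182 and 4221 at 2 weeks, between 2258 and 2949 at 3 weeks, and between 7154 and 7383 in GS cells.

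Across the 5 groups, 35 of the 70 clusters (50%) differed in limma's moderated F test at an adjusted p under 0.05, against 75.2% of the 25254 clusters with a symbol. The 19 Nlrc5 clusters weigh on such shares, and without them 30 of 51 (58.8%) differed. Among the 35, the highest group mean was at 1 week in 12, at 3 weeks in 12, at 0 weeks in 5, at 2 weeks in 3 and in GS cells in 3. Without Nlrc5 it was at 1 week in 11 and at 3 weeks in 8, with the other groups unchanged. The highest groups of all clusters were not counted, so this split has no background beside it. The account below rests on single members. The shares of all clusters called, given with each comparison below, stand beside every count within a role or marker list too.

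**Figure D1:**
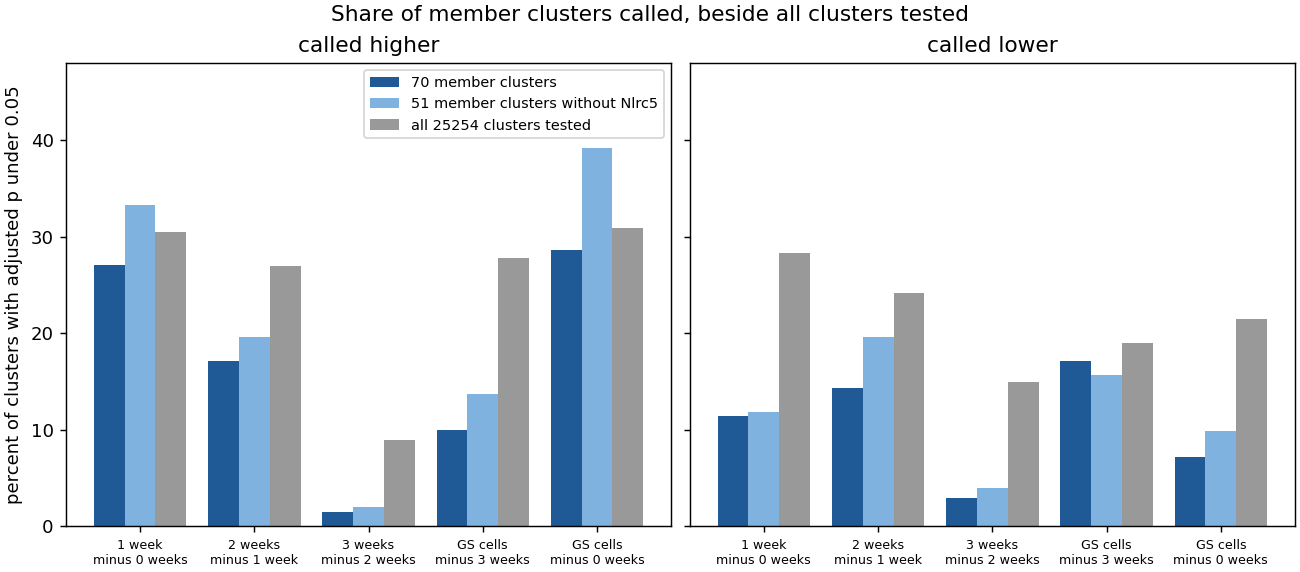
Percent of clusters called higher (left) and lower (right) at an adjusted p under 0.05 in each comparison, for the 70 member clusters, the 51 without Nlrc5 and all 25254 clusters tested. The members reach 27.1% higher at 1 week against 30.5% of all clusters, and are below all clusters in each of the other 9 bars. Without Nlrc5 they are above all clusters in higher calls at 1 week (33.3%) and in GS cells against 0 weeks (39.2%).

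In the first week of culture class I genes and Ifi30, a lysosomal reductase, had the largest rises. H2-D1/H2-L, H2-T10/H2-T9, Ifi30 and B2m each reached between 6.48 and 7.34 times their 0 week geometric mean, whereas the class II genes Cd74, H2-Ab1 and H2-Ea-ps fell. Of the 70 clusters 19 were higher and 8 lower at 1 week than at 0 weeks, 27.1% and 11.4%, where 30.5% and 28.3% of all clusters tested were. All 9 called changes of at least 2-fold were rises, but such changes were not counted over all clusters, so no background share stands beside them. The median log2 change was -0.04 over the members and -0.04 over all clusters, and median scaling moved that of all clusters by 0.107 to 0.07 and the members with it.

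From 1 to 2 weeks B2m, both classical heavy chain clusters and Ifi30 fell, as did Tap1, while Psme1, Psme2, Psmb10, Psmb9, Erap1 and Tapbp rose. Of the 23 other heavy chain clusters 3 rose and 3 fell, and Psmb8 and Tap2 did not pass. The counts were 12 higher and 10 lower of 70 (17.1% and 14.3%), beside 27% and 24.2% of all clusters, and with cyclic loess scaling they became 11 and 16. Called changes of at least 2-fold were 6 falls and 1 rise, again without a count over all clusters. The median log2 change was 0.05 against 0.06 over all clusters. Both of these comparisons read the same 1 week arrays, so a rise followed by a fall is not 2 independent results.

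Between 2 and 3 weeks few members moved: B2m and Psme1 were lower and the H2-T3 cluster higher, 1 higher and 2 lower of 70 (1.43% and 2.86%) beside 8.91% and 14.9% of all clusters. This split moved with the scaling, to 2 higher and 2 lower after quantile scaling, 1 and 5 after median scaling and 3 and 1 after cyclic loess. The median log2 change was 0.09 over the members and 0.03 over all clusters.

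In GS cells B2m was 2.53 times its 3 week geometric mean, and H2-T10/H2-T9, Ifi30, H2-DMa, H2-K1, Tap1 and H2-Ke6 were also higher, whereas Tapbp and 4 Nlrc5 clusters were lower. The counts were 7 higher and 12 lower of 70 (10% and 17.1%) beside 27.8% and 19% of all clusters, and 9 and 9 with median scaling. Against 0 weeks GS cells had 20 clusters higher and 5 lower (28.6% and 7.14%) beside 30.9% and 21.5% of all clusters, or 14 and 10 with cyclic loess. All 5 immunoproteasome and PA28 clusters were among the 20, though Psmb9 was not called with cyclic loess scaling, and the 5 lower ones were class II genes. The median log2 changes were -0.11 and 0.04, against 0.01 and 0.02 over all clusters. The comparison with 0 weeks shares its arrays with those above. In every comparison the 2 groups' arrays did not overlap in any member called. With 2 arrays per group this adds no support to the calls. Members that were not called could lack overlap too, such as H2-M9 and H2-Ke6 at 1 week (adjusted p = 0.11 and 0.88).

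**Figure D2:**
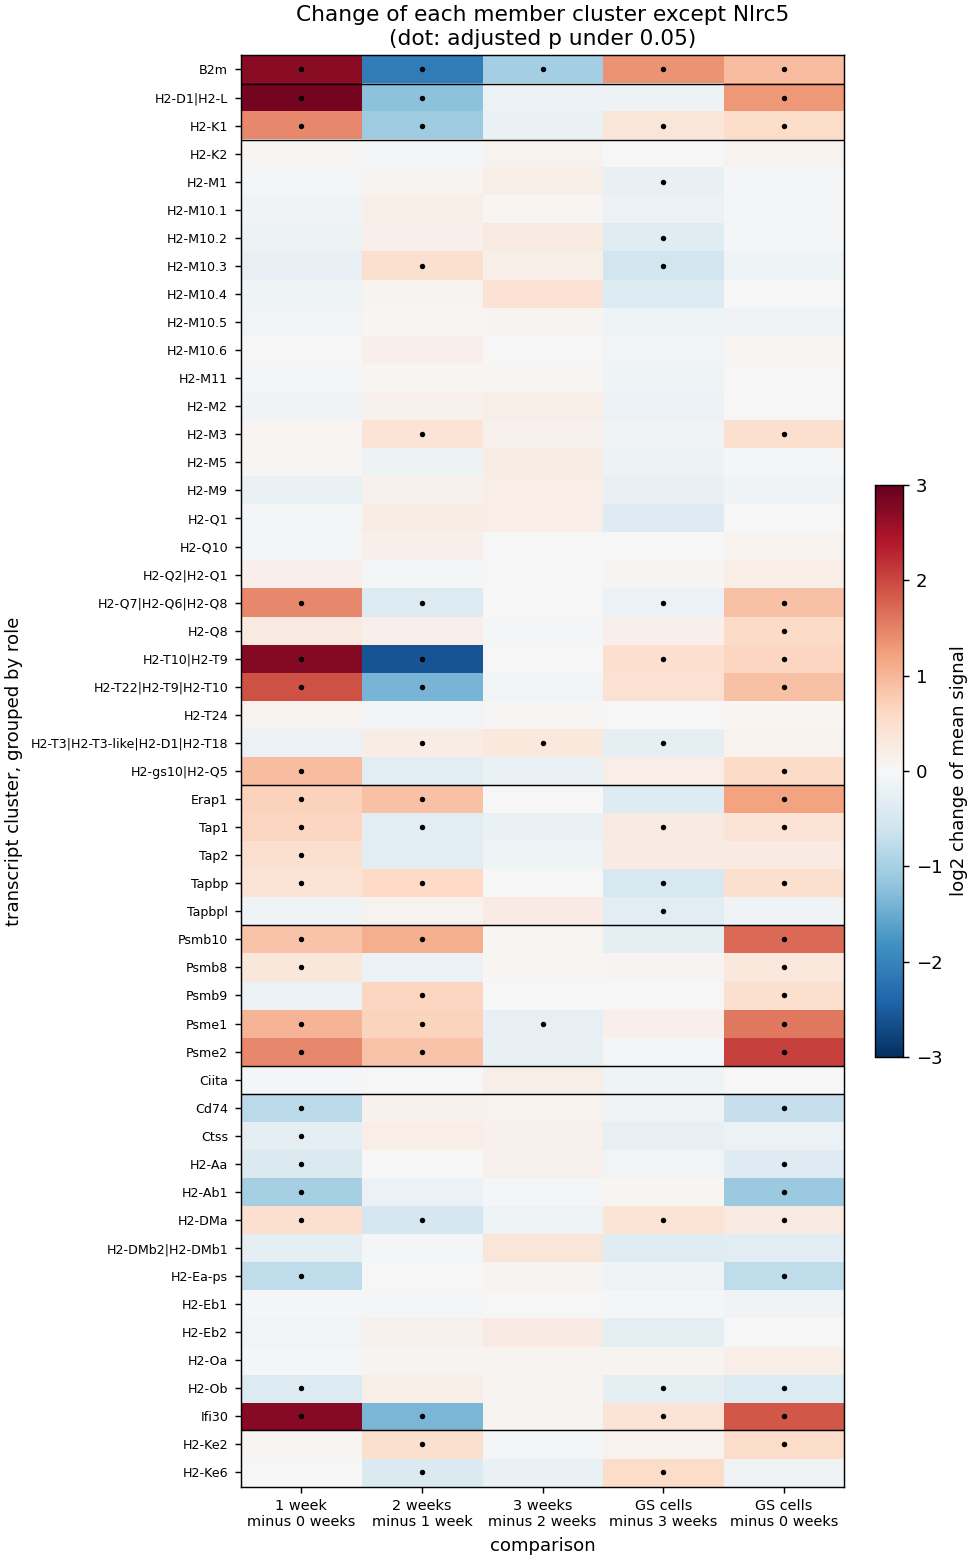
Log2 change of mean signal (colour, from -3 to 3) of the 51 member clusters without Nlrc5, grouped by role, in the 5 comparisons. Dots mark an adjusted p under 0.05. The strongest rises sit in the first column among class I heavy chains, B2m and Ifi30, and most immunoproteasome rows are raised in both early columns and the last.

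B2m, the light chain that every classical class I molecule needs to reach the surface, read 668 and 847 at 0 weeks, 4918 and 4831 at 1 week, 1079 and 1202 at 2 weeks, 489 and 649 at 3 weeks, and 1317 and 1539.8 in GS cells. The 1 week arrays stood far above all others and the 3 week arrays lowest. Below, ± gives the standard error of a log2 change in the fit, with 2 arrays per group, and values under another scaling or without an array are log2 changes too. The log2 change of B2m was 2.70 ± 0.15 (adjusted p = 4e-07) at 1 week, a 6.48-fold rise, then -2.10 ± 0.15 (adjusted p = 4.2e-06) at 2 weeks and -1.01 ± 0.15 (adjusted p = 0.0025) at 3 weeks. In GS cells it was 1.34 ± 0.15 log2 (adjusted p = 0.00015) against 3 weeks and 0.92 ± 0.15 (adjusted p = 0.00075) against 0 weeks, the latter 0.39 with cyclic loess scaling. In the authors' deposited table the ratio of the 3 week to the 0 week mean of B2m is 0.750.

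The classical heavy chains, which bind the peptide, also peaked at 1 week. The cluster shared by H2-D1 and H2-L read 279.7 and 208 at 0 weeks, 1850.1 and 1688 at 1 week, 771 and 728 at 2 weeks, 642 and 689 at 3 weeks, and 576 and 623 in GS cells. Arrays of all 4 cultured groups lay above both arrays at 0 weeks, and those at 1 week above the rest. The log2 change was 2.88 ± 0.13 (adjusted p = 7.5e-08) at 1 week, 7.34-fold, and -1.24 ± 0.13 (adjusted p = 3.9e-05) at 2 weeks, after which neither -0.17 at 3 weeks nor -0.15 in GS cells passed (adjusted p = 0.36 and 0.37). GS cells stayed above 0 weeks by 1.31 ± 0.13 log2 (adjusted p = 2.1e-05), or 0.79 with cyclic loess scaling. H2-K1 read 313 and 313 at 0 weeks, 851 and 855 at 1 week, 419.8 and 394 at 2 weeks, 366 and 347 at 3 weeks, and 439 and 485 in GS cells. It rose by 1.45 ± 0.07 log2 (adjusted p = 1.5e-07), changed by -1.07 ± 0.07 (adjusted p = 2.3e-06) at 2 weeks, and was 0.37 ± 0.07 (adjusted p = 0.0025) in GS cells against 3 weeks. The last of these, and the 0.56 ± 0.07 log2 (adjusted p = 0.00013) against 0 weeks, were not called with cyclic loess scaling, where they were 0.04 and 0.10 (with quantile scaling the former was 0.13).

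**Figure D3:**
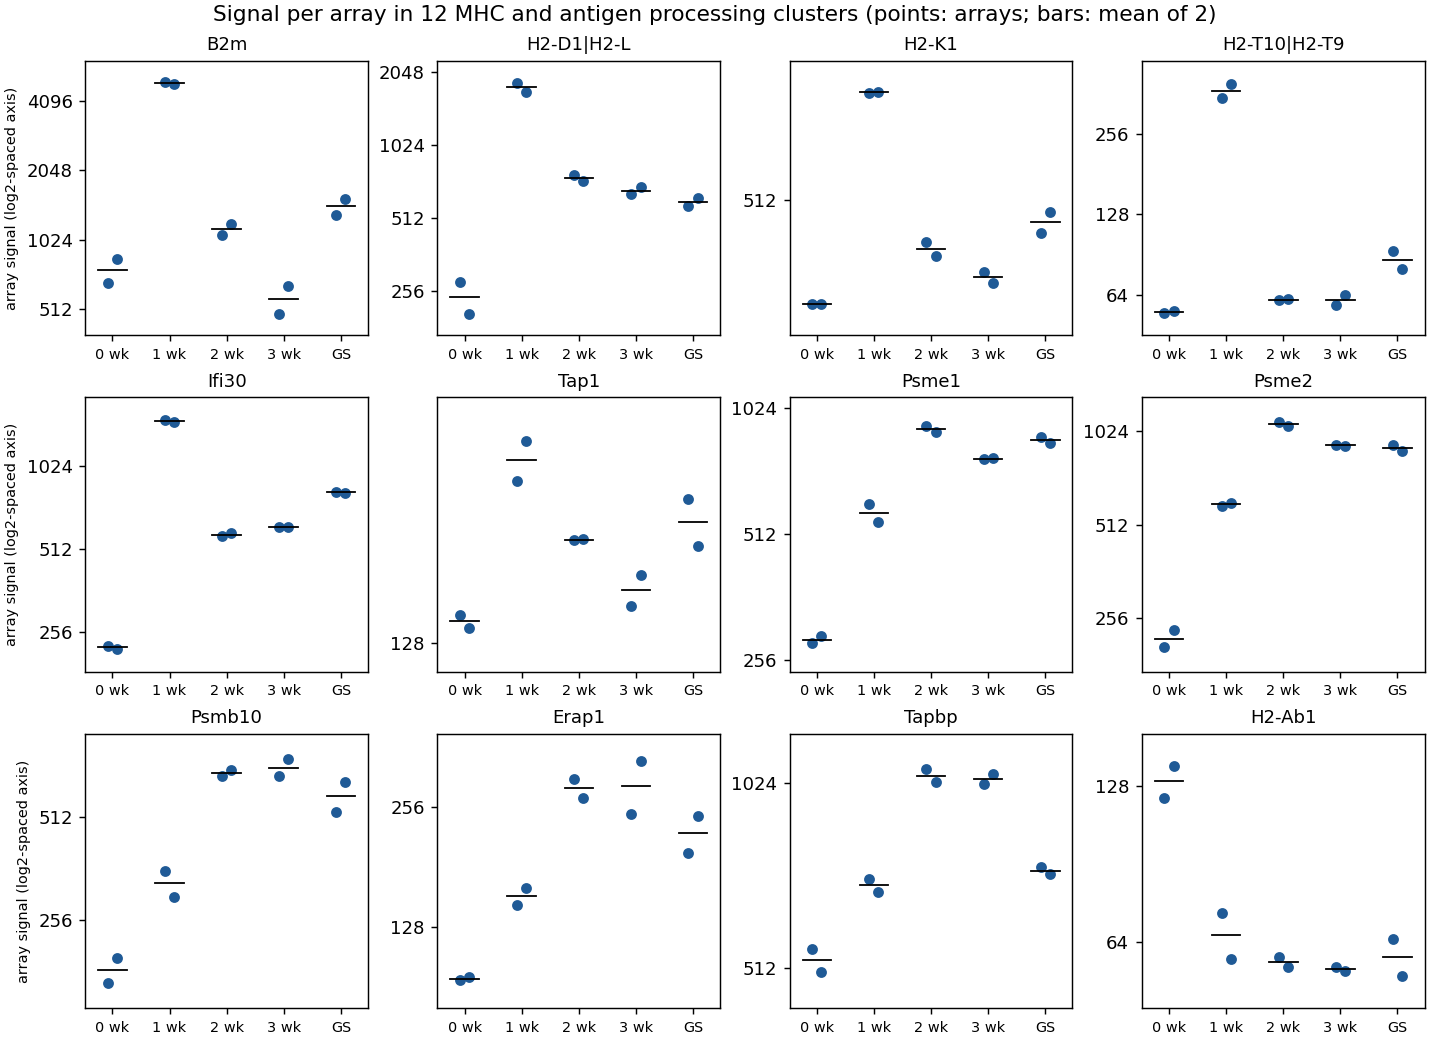
Signal of 12 member clusters on each of the 10 arrays, as points on a log2-spaced axis that differs between panels, with a bar at the mean of the 2 arrays of a group. B2m, H2-D1/H2-L, H2-K1, H2-T10/H2-T9, Ifi30 and Tap1 have their highest mean at 1 week, Psme1, Psme2, Psmb10, Erap1 and Tapbp at 2 or 3 weeks, and H2-Ab1 at 0 weeks.

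Promoter windows of 6 members are shown as examples. These genes either peaked at 1 week (B2m, H2-D1, H2-K1, Tap1) or kept rising to 2 weeks (Psme1, Erap1), and other members shared these courses. Each runs from 250 bases before to 50 bases after the gene's start, 5′ to 3′ on the gene's strand, from RefSeq on GRCm38.p6, the C57BL/6J reference and not DBA/2. Capitals mark matches on either strand to GAAANNGAA (a form of the core of the interferon response element), TTCNNNGAA (STAT site) or CCAAT (NF-Y site). The windows lie at chr2:122147437-122147736 (plus strand) for B2m, chr17:35262844-35263143 (plus strand) for H2-D1, chr17:34000284-34000583 (minus strand) for the first of the H2-K1 starts listed, chr17:34187306-34187605 (plus strand) for Tap1, chr14:55578244-55578543 (plus strand) for Psme1, and chr13:74639603-74639902 (plus strand) for Erap1.
B2m: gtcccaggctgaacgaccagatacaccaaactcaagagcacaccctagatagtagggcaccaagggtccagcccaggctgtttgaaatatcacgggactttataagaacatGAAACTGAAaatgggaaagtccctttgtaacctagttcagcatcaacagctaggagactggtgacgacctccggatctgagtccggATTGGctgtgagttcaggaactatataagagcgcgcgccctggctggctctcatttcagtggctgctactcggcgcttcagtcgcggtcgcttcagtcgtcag
H2-D1: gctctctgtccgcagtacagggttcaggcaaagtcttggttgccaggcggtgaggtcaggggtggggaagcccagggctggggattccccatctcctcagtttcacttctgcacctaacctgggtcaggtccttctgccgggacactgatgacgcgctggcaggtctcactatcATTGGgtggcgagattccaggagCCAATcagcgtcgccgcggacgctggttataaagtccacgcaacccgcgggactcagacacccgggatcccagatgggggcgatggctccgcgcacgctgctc
H2-K1: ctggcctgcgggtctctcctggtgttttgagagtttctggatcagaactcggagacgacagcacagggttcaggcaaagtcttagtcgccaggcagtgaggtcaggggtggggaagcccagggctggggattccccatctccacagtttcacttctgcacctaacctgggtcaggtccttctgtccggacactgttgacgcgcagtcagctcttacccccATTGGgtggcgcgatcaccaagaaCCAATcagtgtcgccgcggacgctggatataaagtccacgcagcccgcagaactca
Tap1: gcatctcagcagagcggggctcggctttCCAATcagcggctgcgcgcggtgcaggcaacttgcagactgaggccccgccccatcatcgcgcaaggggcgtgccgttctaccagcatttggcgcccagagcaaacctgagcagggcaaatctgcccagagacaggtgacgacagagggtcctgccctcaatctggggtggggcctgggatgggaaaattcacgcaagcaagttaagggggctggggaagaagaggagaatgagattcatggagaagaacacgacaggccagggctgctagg
Psme1: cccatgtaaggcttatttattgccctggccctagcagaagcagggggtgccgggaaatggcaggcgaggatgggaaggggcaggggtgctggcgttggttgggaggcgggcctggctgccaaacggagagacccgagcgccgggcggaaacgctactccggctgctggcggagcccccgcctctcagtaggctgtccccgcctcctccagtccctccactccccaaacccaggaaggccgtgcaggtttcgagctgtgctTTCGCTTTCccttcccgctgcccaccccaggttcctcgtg
Erap1: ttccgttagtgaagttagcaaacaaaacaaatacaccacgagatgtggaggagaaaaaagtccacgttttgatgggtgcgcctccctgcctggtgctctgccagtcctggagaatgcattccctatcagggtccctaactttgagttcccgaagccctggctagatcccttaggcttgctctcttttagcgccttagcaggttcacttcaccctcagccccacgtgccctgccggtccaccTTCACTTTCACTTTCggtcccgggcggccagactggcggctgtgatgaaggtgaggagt
B2m holds GAAANNGAA from -139 to -131 and CCAAT, on the other strand, from -53 to -49, counted from the start. H2-D1 and H2-K1 hold 2 CCAAT each and no GAAANNGAA in these letters. Both windows hold the lower-case letters tttcacttct, which on the other strand have the parts of GAAANNGAA in the other order. So do windows not shown, such as those of H2-Q6, H2-Q7, H2-Q10 and H2-M3. That order was not searched, so a window without GAAANNGAA may still hold the element in another form. Psme1 holds 1 GAAANNGAA, from 10 to 18, and Erap1 holds 2 that overlap, from -9 to -1 and from -3 to 5, all on the other strand. Psme2, Psmb10 and Tapbp were also called higher at 1 and at 2 weeks, and their windows, not shown, hold no GAAANNGAA. Among windows not shown, those of H2-T22 and of Ctss, which was called lower at 1 week, hold 1 each. Of the 59 member symbols looked up, 41 had a window, 46 windows in all. CCAAT was in 32 of the 46 (69.6%) and in 37.4% of all 32851 windows, GAAANNGAA in 5 (10.9%) and 8.56%, and TTCNNNGAA in 4 (8.7%) and 8.3%. The GAAANNGAA shares count that order of letters only and do not give the share of windows with the interferon response element in any form. H2 genes arose by duplication, so their windows are not independent, and a match is a description of the letters and not a binding site.

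Among the 23 other class I heavy chains, 4 rose at 1 week (17.4%, beside 30.5% of all clusters) and none passed downward (beside 28.3%). At 2 weeks 3 rose and 3 fell (13% each, beside 27% and 24.2%). The cluster of H2-T10 and H2-T9, relatives of the T22 molecule that γδ T cells recognise, read 54.8 and 55.6 at 0 weeks, 348 and 395 at 1 week, 61.1 and 61.7 at 2 weeks, 58.3 and 64.1 at 3 weeks, and 93.1 and 80.0 in GS cells. It was near the array's lower quartile at 0, 2 and 3 weeks, and the 1 week arrays stood far above the rest. Its log2 change was 2.75 ± 0.09 (adjusted p = 1.4e-08) at 1 week and -2.59 ± 0.09 (adjusted p = 6.3e-08) at 2 weeks, sizes that rest on values near the lower quartile with no background level known. GS cells were 0.50 ± 0.09 log2 (adjusted p = 0.0024) above 3 weeks. The cluster of H2-T22, H2-T9 and H2-T10 read 95.5 and 89.1 at 0 weeks, 276 and 436 at 1 week, 132 and 131 at 2 weeks, 148 and 103 at 3 weeks, and 203 and 141 in GS cells, with the arrays far apart at 1 and 3 weeks and in GS cells. It rose by 1.91 ± 0.25 log2 (adjusted p = 0.00011) and then changed by -1.40 ± 0.25 (adjusted p = 0.0012). The 0.88 ± 0.25 log2 (adjusted p = 0.014) of GS cells against 0 weeks was lost without 0 weeks replicate 1 (0.93), 0 weeks replicate 2 (0.83) or GS cells replicate 1 (0.61).

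Of the H2-Q clusters, which include the Qa-2 chains that a lipid anchors, 2 rose at 1 week and the others did not pass. The cluster of H2-Q7, H2-Q6 and H2-Q8 read 612 and 584 at 0 weeks, 1596 and 1660.1 at 1 week, 1233 and 1234 at 2 weeks, 1242 and 1233 at 3 weeks, and 1063 and 1125 in GS cells. Every cultured array lay above both 0 week arrays. It rose by 1.44 ± 0.06 log2 (adjusted p = 6.3e-08) at 1 week and was 0.87 ± 0.06 (adjusted p = 2.7e-06) higher in GS cells than at 0 weeks (0.34 with cyclic loess scaling). The change of -0.40 ± 0.06 log2 (adjusted p = 0.00057) at 2 weeks shrank to -0.09 with quantile scaling and was not called there. The cluster of H2-gs10 and H2-Q5 read 58.1 and 64.1 at 0 weeks, 96.6 and 138 at 1 week, 87.0 and 96.3 at 2 weeks, 78.7 and 79.1 at 3 weeks, and 96.7 and 85.9 in GS cells and rose by 0.92 ± 0.15 log2 (adjusted p = 0.00055), while H2-Q8 alone was higher only in the comparison of GS cells with 0 weeks, by 0.57 ± 0.12 (adjusted p = 0.0025) (0.30 and not called with cyclic loess). H2-Q1, H2-Q10 and the H2-Q2/H2-Q1 cluster passed in no comparison.

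H2-M3, which presents N-formylated bacterial and mitochondrial peptides, had a later course. It read 150.2 and 120.2 at 0 weeks, 147 and 133 at 1 week, 185 and 191 at 2 weeks, 212 and 195 at 3 weeks, and 205 and 172 in GS cells. Arrays at 0 and 1 week overlapped, and all later arrays lay above them. The log2 change was 0.06 ± 0.12 (adjusted p = 0.72) at 1 week, 0.42 ± 0.12 (adjusted p = 0.017) at 2 weeks and 0.48 ± 0.12 (adjusted p = 0.0082) in GS cells against 0 weeks. The 2 week call was lost without 1 week replicate 2 (0.35), 2 weeks replicate 1 (0.45) or 2 weeks replicate 2 (0.40), and the GS cell call without 0 weeks replicate 2 (0.32). The thymus leukaemia antigen cluster of H2-T3, H2-T3-like, H2-D1 and H2-T18 read 61.5 and 55.9 at 0 weeks, 52.2 and 51.9 at 1 week, 59.0 and 62.7 at 2 weeks, 77.4 and 73.4 at 3 weeks, and 66.0 and 59.4 in GS cells, highest at 3 weeks. Its changes of 0.22 at 2 weeks, 0.31 at 3 weeks and -0.27 in GS cells (adjusted p = 0.041, 0.023 and 0.023) were each lost with quantile and with cyclic loess scaling.

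The H2-M10 clusters, whose products are made in the vomeronasal organ, and H2-M1, H2-M2, H2-M5, H2-M9, H2-M11, H2-K2 and H2-T24 had low to middling signals. These ranged from 38.8 to 149 over all arrays. Only H2-M1, H2-M10.2 and H2-M10.3 passed in any step. H2-M10.3 was 0.49 at 2 weeks (adjusted p = 0.015, not called without 1 week replicate 2, where it was 0.39, or 2 weeks replicate 1, where it was 0.33). In GS cells against 3 weeks, H2-M1, H2-M10.2 and H2-M10.3 were at -0.23, -0.36 and -0.54 (adjusted p = 0.023, 0.024 and 0.01). Each of those calls was lost without at least 1 of the 4 arrays compared, with H2-M10.3 at -0.45 without 3 weeks replicate 1 and -0.39 without GS cells replicate 2. H2-M10.2 then stood at -0.37, -0.34 and -0.20 without 3 weeks replicate 1, 3 weeks replicate 2 and GS cells replicate 2, and H2-M1 at -0.20 and -0.21 without 3 weeks replicate 2 and GS cells replicate 1. The H2-M1 call was also lost with quantile (-0.05), median (-0.17) and cyclic loess scaling (-0.08).

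Of the 5 peptide transport, trimming and loading genes, 4 rose at 1 week, by at most 1.6-fold, the rise of Tapbp turning to -0.01 with cyclic loess scaling, and Tapbpl did not pass. Tap1, one chain of the peptide pump, read 139 and 134 at 0 weeks, 202 and 225 at 1 week, 171 and 171 at 2 weeks, 142 and 155 at 3 weeks, and 191 and 168 in GS cells. Its 1 week arrays lay above all others. It rose by 0.65 ± 0.09 log2 (adjusted p = 0.00016), 1.57-fold, and was -0.32 ± 0.09 (adjusted p = 0.013) at 2 weeks and 0.27 ± 0.09 (adjusted p = 0.03) in GS cells against 3 weeks. The 2 week call was lost without 1 week replicate 2 (-0.24), 2 weeks replicate 1 (-0.32) or 2 weeks replicate 2 (-0.32). The GS cell call was lost without either 2 week array (0.27 each), 3 weeks replicate 1 (0.21) or GS cells replicate 1 (0.18), and with cyclic loess scaling (0.17). Against 0 weeks GS cells were 0.40 ± 0.09 log2 (adjusted p = 0.0039), or 0.23 and not called with cyclic loess. Its partner Tap2 read 127 and 107 at 0 weeks, 175 and 149 at 1 week, 130.4 and 126 at 2 weeks, 118 and 117 at 3 weeks, and 167 and 115 in GS cells and rose by 0.47 ± 0.17 log2 (adjusted p = 0.036) at 1 week, a call lost without 0 weeks replicate 2 (0.34), 1 week replicate 1 (0.35) or any 2 or 3 week array (0.47 each), and it passed in no other comparison.

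Erap1, the aminopeptidase that trims peptides to class I length, rose in steps. It read 94.4 and 96.3 at 0 weeks, 146 and 161 at 1 week, 299.9 and 269 at 2 weeks, 246 and 332 at 3 weeks, and 197 and 243 in GS cells. All arrays from 2 weeks on lay above those at 1 week, and those above the 0 week arrays. The log2 change was 0.68 ± 0.15 (adjusted p = 0.0032) at 1 week and 0.89 ± 0.15 (adjusted p = 0.00081) at 2 weeks, and GS cells were 1.20 ± 0.15 (adjusted p = 0.0001) above 0 weeks, 2.29-fold. In the authors' deposited table the 3 week over 0 week ratio of Erap1 is 3.00. Tapbp (tapasin), the chaperone that holds class I to the pump, read 550.2 and 504 at 0 weeks, 714 and 682 at 1 week, 1078 and 1029 at 2 weeks, 1019 and 1059 at 3 weeks, and 747 and 728 in GS cells. Its arrays at 2 and 3 weeks were highest. The changes were 0.41 ± 0.07 log2 (adjusted p = 0.00073) at 1 week, 0.59 ± 0.07 (adjusted p = 8.6e-05) at 2 weeks and -0.49 ± 0.07 (adjusted p = 0.00044) in GS cells against 3 weeks, the last -0.74 with quantile and -0.80 with cyclic loess scaling. The 1 week rise turned to -0.01 with cyclic loess scaling and was 0.19 and not called with quantile scaling, and the 0.49 ± 0.07 log2 (adjusted p = 0.00026) of GS cells against 0 weeks turned to -0.05 with cyclic loess.

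Tapbpl, a tapasin relative that edits peptides away from the pump, read 135 and 129 at 0 weeks, 127 and 115 at 1 week, 127 and 133 at 2 weeks, 160.4 and 147 at 3 weeks, and 139 and 108 in GS cells. It passed only in GS cells against 3 weeks, at -0.33 ± 0.12 log2 (adjusted p = 0.046). That call was lost without any 1 array of 0, 1, 2 or 3 weeks (from -0.39 to -0.26) or without GS cells replicate 2 (-0.14).

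Of the immunoproteasome and PA28 genes 4 of 5 rose at 1 week, 4 of 5 rose at 2 weeks, 1 fell at 3 weeks, and all 5 were higher in GS cells than at 0 weeks. Of all clusters 30.5% rose at 1 week, 27% rose at 2 weeks, 14.9% fell at 3 weeks and 30.9% were higher in GS cells than at 0 weeks. Psme2, the beta subunit of the PA28 activator that opens the proteasome's gate, read 206 and 234 at 0 weeks, 587 and 603 at 1 week, 1098 and 1062 at 2 weeks, 925 and 916 at 3 weeks, and 922 and 886 in GS cells. Its arrays at 0 weeks, at 1 week and from 2 weeks on formed steps that did not overlap. It rose by 1.44 ± 0.07 log2 (adjusted p = 1.9e-07) and by 0.86 ± 0.07 (adjusted p = 1.2e-05), and GS cells were 4.12 times the 0 week geometric mean (2.04 ± 0.07, adjusted p = 2.8e-08). In the authors' deposited table the ratio of Psme2 at 3 over 0 weeks is 4.19. The alpha subunit Psme1 read 281 and 292 at 0 weeks, 605 and 549.6 at 1 week, 931 and 900.4 at 2 weeks, 775 and 778 at 3 weeks, and 873 and 847 in GS cells. It rose by 1.01 ± 0.07 log2 (adjusted p = 1.2e-06) (0.62 with cyclic loess scaling) and 0.67 ± 0.07 (adjusted p = 3.5e-05), and GS cells were 1.58 ± 0.07 (adjusted p = 8.7e-08) above 0 weeks. The small change of -0.24 ± 0.07 log2 (adjusted p = 0.035) at 3 weeks was lost without any 1 array of 0, 2 or 3 weeks (from -0.26 to -0.21) and with quantile (-0.10) and cyclic loess scaling (-0.00).

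Psmb10 (MECL-1), one of the catalytic subunits that replace those of the standard proteasome, read 167 and 198 at 0 weeks, 357 and 299 at 1 week, 677 and 704 at 2 weeks, 676 and 760.0 at 3 weeks, and 532 and 653 in GS cells. Every group from 2 weeks on lay above 1 week, and 1 week above 0 weeks. The log2 change was 0.85 ± 0.13 (adjusted p = 0.00038) at 1 week (0.52 with cyclic loess scaling), 1.08 ± 0.13 (adjusted p = 0.00011) at 2 weeks and 1.70 ± 0.13 (adjusted p = 4.1e-06) in GS cells against 0 weeks. Psmb9 (LMP2) read 250.3 and 230.4 at 0 weeks, 239 and 188 at 1 week, 332 and 334 at 2 weeks, 348 and 311 at 3 weeks, and 353 and 317 in GS cells. It was -0.18 ± 0.12 log2 (adjusted p = 0.23) at 1 week, with overlapping arrays, rose by 0.65 ± 0.12 (adjusted p = 0.0013) at 2 weeks, and was 0.48 ± 0.12 (adjusted p = 0.0069) in GS cells against 0 weeks, which was lost without 0 weeks replicate 2 (0.42) and with cyclic loess scaling (0.13). Psmb8 (LMP7) read 64.4 and 66.6 at 0 weeks, 85.9 and 81.5 at 1 week, 74.1 and 74.9 at 2 weeks, 78.8 and 75.7 at 3 weeks, and 85.9 and 77.9 in GS cells. It rose by 0.35 ± 0.07 log2 (adjusted p = 0.0018) at 1 week and stood 0.32 ± 0.07 (adjusted p = 0.0037) above 0 weeks in GS cells. Its signal was low, above the array median on no array and at or below the lower quartile on both 0 week arrays.

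Psmb9 and Tap1 lie back to back, and 275 of the 300 bases of their windows are shared. Tap1 was at 0.65 and Psmb9 at -0.18 at 1 week, and -0.32 and 0.65 at 2 weeks, so the neighbours moved in opposite directions at 2 weeks. The Tap1 call there is the one lost without single arrays, and the difference between the genes was not tested.

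**Figure D4:**
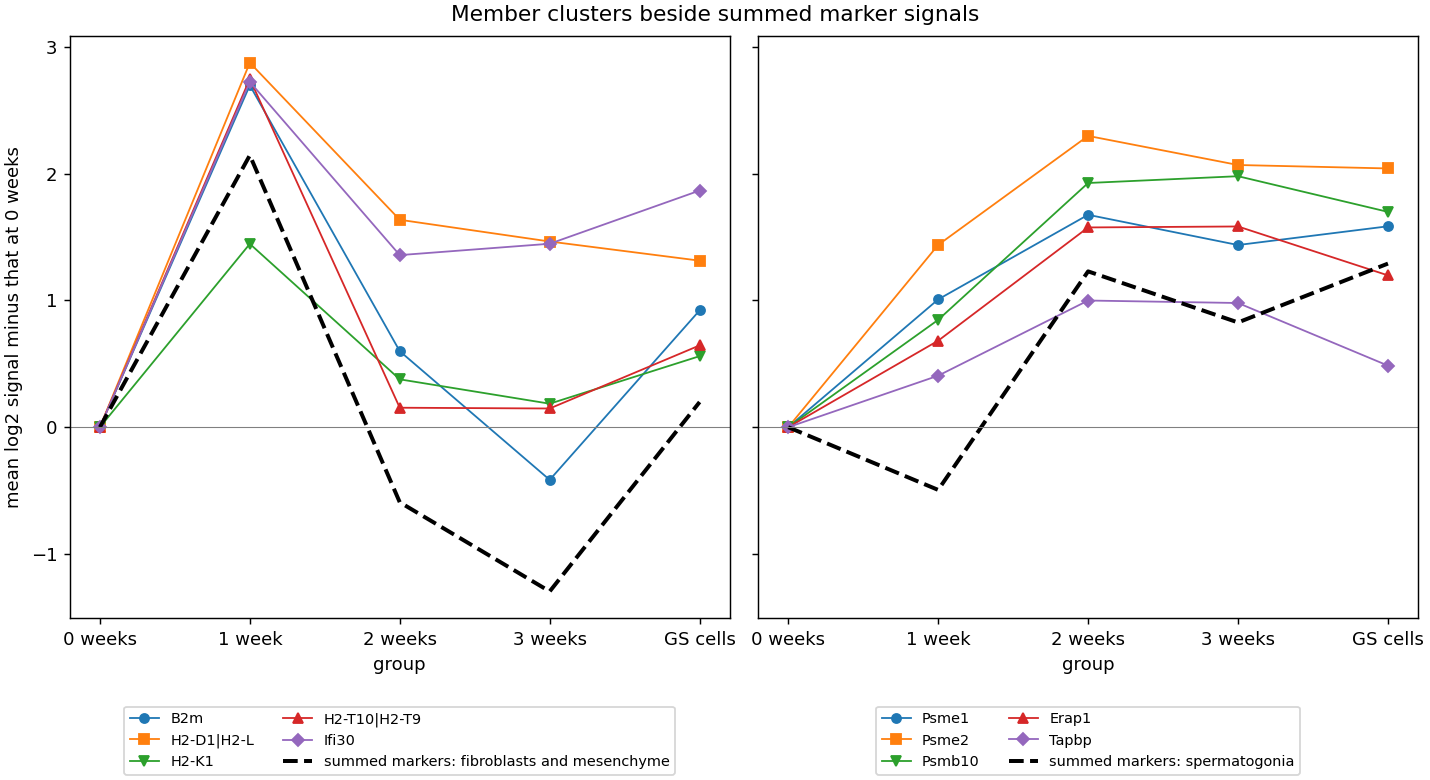
Mean log2 signal minus that at 0 weeks in the 5 groups, for 5 members with their highest mean at 1 week (left, with the summed fibroblast and mesenchyme markers dashed) and 5 members that rose to 2 weeks (right, with the summed spermatogonial markers dashed). The left members were picked for their peak at 1 week, and the right members for their rise to 2 weeks. The fibroblast and mesenchyme sum also peaks at 1 week, so the shared peak on the left follows from that choice. The right members climb from 0 to 2 weeks, where the 1 week step of Tapbp turns to -0.01 with cyclic loess scaling. The spermatogonial marker sum went from between 5978 and 6052 at 0 weeks to between 4267 and 4272 at 1 week. A link between members and cell types was not tested.

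Marker genes moved beside these members. All 10 measured fibroblast and mesenchyme markers rose at 1 week and all 10 fell at 2 weeks. At 3 weeks 7 were lower, and 9 were higher in GS cells against 3 weeks. B2m was called in the same steps and directions. H2-D1/H2-L, H2-K1, H2-T10/H2-T9 and Ifi30 shared the first 2 steps but did not pass at 3 weeks (log2 changes -0.17, -0.19, -0.01 and 0.09). In GS cells against 3 weeks H2-D1/H2-L did not pass either (-0.15), while the others were higher. The summed signal of the fibroblast and mesenchyme markers in each group is given above, and 9 of 10 lay above the array median at 1 week. Of the 13 spermatogonial markers, 5 rose and 3 fell at 1 week and 12 rose at 2 weeks. Their sum went from between 4267 and 4272 at 1 week to between 13920 and 14284 at 2 weeks and between 10375 and 10963 at 3 weeks. The part of either cell type in the changes of class I, immunoproteasome or loading genes was not tested.

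Interferon-gamma response genes other than the members were in part raised. Of 9 measured of a list of 10, 7 rose at 1 week, 4 rose and 2 fell at 2 weeks, 2 rose at 3 weeks, 4 fell and 1 rose in GS cells against 3 weeks, and 6 were higher in GS cells than at 0 weeks. The summed signal was 950 to 971 at 0 weeks, 1458 to 1520 at 1 week, 2001 to 2109 at 2 weeks, 2156 to 2298 at 3 weeks and 1821 to 1887 in GS cells. Irf1, a transcription factor that binds class I promoters, read 131 and 145 at 0 weeks, 264 and 280.3 at 1 week, 494 and 508 at 2 weeks, 454 and 541 at 3 weeks, and 555 and 569.9 in GS cells. It rose by 0.98 ± 0.09 log2 (adjusted p = 1.3e-05) and 0.88 ± 0.09 (adjusted p = 4.4e-05). The GTPase Gbp2 read 81.7 and 77.8 at 0 weeks, 116 and 128 at 1 week, 325 and 336 at 2 weeks, 392 and 432 at 3 weeks, and 203 and 238 in GS cells, with its largest step of 1.44 ± 0.09 log2 (adjusted p = 1.8e-06) at 2 weeks and a change of -0.90 ± 0.09 (adjusted p = 7.4e-05) in GS cells. Cxcl9 and Iigp1 did not pass at 1 or 2 weeks.

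Nlrc5, the activator that drives class I promoters, is split over 19 clusters, and these did not move together. At 1 week 2 were higher and 2 lower, at 2 weeks 2 were higher, at 3 weeks none passed, and in GS cells 4 were lower than at 3 weeks and none differed from 0 weeks at an adjusted p under 0.05. The smaller 1 week rise, of cluster 10574104 (0.21 ± 0.08 log2, adjusted p = 0.044), was lost when 32 was added to the signal (0.16). It was also lost without either 0 week array (0.21 and 0.22), 1 week replicate 2 (0.15) or either 2 week array (0.21 each). Its signal lay above the array median on no array. Cluster 10574100, which had the largest change called at 2 weeks, read 882 and 831 at 0 weeks, 672 and 625 at 1 week, 929.9 and 944 at 2 weeks, 1228 and 1025 at 3 weeks, and 841 and 640.1 in GS cells. Its 1 week arrays lay below both 0 week arrays. The changes were -0.40 ± 0.13 log2 (adjusted p = 0.025) at 1 week, 0.53 ± 0.13 (adjusted p = 0.0076) at 2 weeks and -0.61 ± 0.13 (adjusted p = 0.0045) in GS cells against 3 weeks. The 1 week call was lost without 0 weeks replicate 1 (-0.36), 0 weeks replicate 2 (-0.45) or 1 week replicate 2 (-0.35), and the value was -0.62 with quantile and -0.83 with cyclic loess scaling. Cluster 10574102, in contrast, read 141 and 142 at 0 weeks, 199.8 and 173 at 1 week, 169 and 163 at 2 weeks, 179 and 185 at 3 weeks, and 168 and 144 in GS cells and rose by 0.39 ± 0.09 log2 (adjusted p = 0.0052) at 1 week. Which exons or transcripts these clusters read was not analysed here, so no single direction can be given for Nlrc5.

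**Figure D5:**
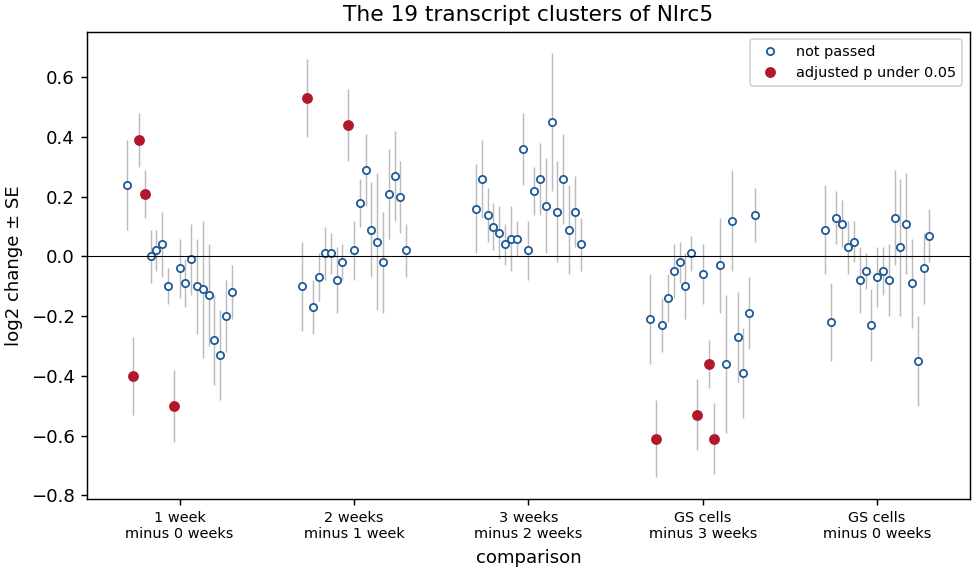
Log2 change with its standard error (bars) of each of the 19 Nlrc5 clusters in the 5 comparisons, in the same order within each. Filled points have an adjusted p under 0.05: 2 above and 2 below 0 at 1 week, 2 above at 2 weeks and 4 below in GS cells against 3 weeks.

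Of the 12 class II presentation clusters, 6 fell and 2 rose at 1 week, and 5 were lower and 2 higher in GS cells than at 0 weeks. Cd74, the invariant chain that guides class II to endosomes, read 102 and 106 at 0 weeks, 61.1 and 56.0 at 1 week, 62.2 and 65.9 at 2 weeks, 71.8 and 66.3 at 3 weeks, and 67.1 and 61.1 in GS cells. Both 0 week arrays lay above every cultured array. It changed by -0.82 ± 0.08 log2 (adjusted p = 1.6e-05) at 1 week and -0.69 ± 0.08 (adjusted p = 6.5e-05) in GS cells against 0 weeks. H2-Ab1, the beta chain of I-A, read 121 and 139.8 at 0 weeks, 72.8 and 59.2 at 1 week, 59.8 and 57.3 at 2 weeks, 57.3 and 56.4 at 3 weeks, and 64.9 and 55.1 in GS cells, again with 0 weeks above all. Its changes were -0.99 ± 0.12 log2 (adjusted p = 7e-05) at 1 week, 1.98-fold lower, and -1.12 ± 0.12 (adjusted p = 3.5e-05) in GS cells. H2-Ea-ps, annotated as a pseudogene from a strain without a working I-E alpha chain, read 93.9 and 73.3 at 0 weeks, 50.2 and 47.3 at 1 week, 48.9 and 49.9 at 2 weeks, 55.9 and 49.4 at 3 weeks, and 51.5 and 46.5 in GS cells and was at -0.77 ± 0.12 log2 (adjusted p = 0.00038) at 1 week (-0.51 when 32 was added to the signal).

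The I-A alpha chain H2-Aa read 72.6 and 52.3 at 0 weeks, 48.7 and 42.1 at 1 week, 44.9 and 46.6 at 2 weeks, 51.6 and 48.3 at 3 weeks, and 49.4 and 45.1 in GS cells. The first 0 week array was its highest. The change of -0.44 ± 0.14 log2 (adjusted p = 0.023) at 1 week became -0.21 without 0 weeks replicate 1 and -0.34 without 1 week replicate 2 and was not called, and it was -0.68 without 0 weeks replicate 2. With quantile scaling it was -0.31 and not called. The GS cell change of -0.38 ± 0.14 log2 (adjusted p = 0.048) against 0 weeks was lost without any 1 array except 0 weeks replicate 2 (from -0.45 to -0.15, and -0.62 without 0 weeks replicate 2). That call was also lost with quantile (-0.29) and median scaling (-0.32) and when 32 was added to the signal (-0.25). H2-Ob, a chain of the inhibitor of peptide exchange, read 75.1 and 76.9 at 0 weeks, 59.9 and 55.6 at 1 week, 66.7 and 63.0 at 2 weeks, 67.6 and 70.9 at 3 weeks, and 61.5 and 54.1 in GS cells. It changed by -0.40 ± 0.08 log2 (adjusted p = 0.0022) at 1 week, with -0.23 after quantile scaling, and by -0.40 ± 0.08 (adjusted p = 0.0024) in GS cells against 0 weeks. Its -0.26 ± 0.08 log2 (adjusted p = 0.025) against 3 weeks was lost without 3 weeks replicate 1 (-0.30), 3 weeks replicate 2 (-0.23) or GS cells replicate 2 (-0.17), and with quantile (-0.08) and cyclic loess scaling (-0.11).

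Ctss, the protease that finishes the cutting of the invariant chain, read 91.7 and 97.6 at 0 weeks, 76.6 and 80.0 at 1 week, 87.8 and 93.8 at 2 weeks, 104 and 94.8 at 3 weeks, and 92.0 and 77.3 in GS cells. Its -0.27 ± 0.09 log2 (adjusted p = 0.034) at 1 week was lost without any 1 array of 0, 1 or 2 weeks (from -0.32 to -0.23) and with all 3 scalings (from -0.17 to -0.11). H2-Eb1, the I-E beta chain, read 155 and 137 at 0 weeks, 151 and 129 at 1 week, 128 and 146 at 2 weeks, 136 and 139 at 3 weeks, and 145 and 126 in GS cells, with overlapping groups throughout. H2-Oa, the partner of H2-Ob, read 71.0 and 63.4 at 0 weeks, 71.8 and 57.9 at 1 week, 65.9 and 70.6 at 2 weeks, 74.1 and 71.0 at 3 weeks, and 85.6 and 69.8 in GS cells. Neither passed in any comparison. The shared H2-DMb2/H2-DMb1 cluster read 126 and 115 at 0 weeks, 113 and 87.5 at 1 week, 97.3 and 93.9 at 2 weeks, 131 and 114 at 3 weeks, and 105 and 86.8 in GS cells and H2-Eb2 read 56.7 and 53.1 at 0 weeks, 53.3 and 50.1 at 1 week, 56.1 and 56.5 at 2 weeks, 70.1 and 64.1 at 3 weeks, and 61.4 and 48.2 in GS cells, and they did not pass either. Ciita, the activator of class II genes, read 108 and 95.8 at 0 weeks, 99.4 and 94.9 at 1 week, 98.8 and 98.8 at 2 weeks, 118 and 106 at 3 weeks, and 113 and 93.7 in GS cells and lay between -0.12 and 0.18 in log2 change over the 5 comparisons, none called.

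Ifi30 and H2-DMa were the class II members that rose. Ifi30, a thiol reductase of lysosomes that unfolds antigens and also works outside the class II route, read 229 and 223 at 0 weeks, 1502 and 1481 at 1 week, 572 and 585 at 2 weeks, 614 and 617 at 3 weeks, and 828 and 819 in GS cells. The pairs of arrays agreed closely and no groups overlapped. It rose by 2.72 ± 0.06 log2 (adjusted p = 8.3e-10) at 1 week, 6.6-fold, changed by -1.37 ± 0.06 (adjusted p = 1.3e-07) at 2 weeks, and GS cells were 1.87 ± 0.06 (adjusted p = 9.9e-09) above 0 weeks. The 0.42 ± 0.06 log2 (adjusted p = 0.00038) of GS cells against 3 weeks was 0.19 with quantile and 0.09 and not called with cyclic loess scaling. H2-DMa, a chain of the peptide exchange factor, read 98.7 and 92.6 at 0 weeks, 137 and 129.7 at 1 week, 95.7 and 91.6 at 2 weeks, 89.9 and 82.0 at 3 weeks, and 114 and 115 in GS cells. It rose by 0.48 ± 0.07 log2 (adjusted p = 0.00032), changed by -0.51 ± 0.07 (adjusted p = 0.0003) at 2 weeks and was 0.42 ± 0.07 (adjusted p = 0.0015) in GS cells against 3 weeks. Its 0.26 ± 0.07 log2 (adjusted p = 0.013) in GS cells against 0 weeks was lost without 0 weeks replicate 2 (0.22).

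Macrophage markers mostly fell beside the class II genes. Of 16 macrophage markers, 9 fell, 3 rose and 4 did not pass at 1 week, with a median log2 change of -0.49. Of all clusters 28.3% fell and 30.5% rose in that comparison. In GS cells 11 were lower and 1 was higher than at 0 weeks, beside 21.5% and 30.9% of all clusters. They summed to 2483 to 2636 at 0 weeks, with 7 of 16 above the array median, 1932 to 1961 at 1 week, 2134 to 2156 at 2 weeks, 1990 to 2203 at 3 weeks and 1546 to 1657 in GS cells. The 9 markers of B cells and dendritic cells summed to 700 to 732 at 0 weeks and 604 to 659 at 1 week, with none above the median in either. Those of T and NK cells summed to 554 to 591 and 609 to 682, with 1 of 8 above it. The part of such cells in the class II changes was not tested.

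The genes around the pathway, taken from lists by role, moved as follows. All 4 class I loading chaperones (Calr, Canx, Pdia3 and Uggt1, which fold and check new heavy chains) rose at 1 week, all 4 fell at 2 weeks, 3 fell at 3 weeks and all 4 were higher in GS cells than at 3 weeks. Uggt1 had the largest 1 week rise of them, 1.51 ± 0.07 log2 (adjusted p = 6.3e-08). Of the 5 standard proteasome subunits and other activators, 3 rose and 1 fell at 1 week and 1 rose and 1 fell at 2 weeks, with Psme3, the nuclear PA28 gamma, at 0.73 ± 0.08 log2 (adjusted p = 6.7e-05) at 2 weeks and Psmb6, which Psmb9 replaces, at -0.67 ± 0.07 (adjusted p = 3.6e-05). Psme4, another activator, had the largest 1 week change of them, -1.46 ± 0.10 log2 (adjusted p = 1.6e-06). Among 7 class I-like genes measured of 9, the neonatal Fc receptor Fcgrt rose by 0.68 ± 0.10 log2 (adjusted p = 0.00031) at 1 week and changed by -1.46 ± 0.10 (adjusted p = 3.1e-06) at 2 weeks, and Mr1, which presents vitamin metabolites, by -1.25 ± 0.11 (adjusted p = 1.6e-05) at 2 weeks.

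Of 9 transcription and interferon-gamma signalling genes measured of 10, 7 rose and 2 fell at 1 week, and this list overlaps the response list above. The largest rises were in Irf2 (2.27 ± 0.10 log2, adjusted p = 5e-08), the receptor chain Ifngr2 (2.16 ± 0.08, adjusted p = 1.6e-08) and the kinase Jak1 (2.08 ± 0.13, adjusted p = 8.3e-07). Rfx5, a factor that binds class II and class I promoters, read 149 and 177 at 0 weeks, 115 and 125 at 1 week, 205 and 198 at 2 weeks, 172 and 199.7 at 3 weeks, and 144 and 173 in GS cells. It changed by -0.44 ± 0.12 log2 (adjusted p = 0.011) at 1 week and 0.75 ± 0.12 (adjusted p = 0.00063) at 2 weeks. The 3 lysosomal proteases measured of 5 class II compartment genes (Ctsd, Ctsl and Lgmn) all rose at 1 week and all fell at 2 weeks, with Ctsd at 2.88 ± 0.09 log2 (adjusted p = 1e-08) and -1.31 ± 0.09 (adjusted p = 3.8e-06).

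H2-Ke2 and H2-Ke6, the members that are not MHC molecules, did not pass at 1 week. H2-Ke2 was 0.48 ± 0.09 log2 (adjusted p = 0.0015) at 2 weeks and 0.55 ± 0.09 (adjusted p = 0.0005) in GS cells against 0 weeks (0.12 and not called with cyclic loess scaling), and H2-Ke6 was -0.43 ± 0.08 (adjusted p = 0.0023) at 2 weeks and 0.55 ± 0.08 (adjusted p = 0.00077) in GS cells against 3 weeks.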

How the data were processed

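RNA of 10 samples (5 groups of 2) was hybridised to Affymetrix Mouse Gene 1.0 ST arrays after biotin labelling with a WT Terminal Labeling kit, per the labels' protocols. The deposited values are linear intensity values, 1 per transcript cluster, and per the file headers the annotation is na32, build mm9. How background was corrected and probes were summarised and normalised is not stated in the sources used here. In the authors' deposited table stand group means of intensity for 0 and 3 weeks (geometric means of both arrays, to a relative difference of at most 8.9e-07) and the ratio of 3 over 0 weeks. Depth has no meaning for arrays, and the number of arrays limits the precision.

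From the deposited intensity, log2 signals were computed with a floor of 1, below which no value lay, and the 25254 clusters with at least 1 gene symbol were fitted on 5 group means with limma 3.58.1 (R 4.3.3; lmFit and eBayes; 5 residual and 3.68 prior degrees of freedom). P-values were adjusted by Benjamini-Hochberg over all 25254 clusters, with a call at an adjusted p under 0.05. Errors of log2 changes are standard errors of the fit, fold changes are ratios of the geometric means of a group's arrays (2 to the power of the log2 change), n = 2 arrays per group throughout, and tests are two-sided. The fit was tested on simulated data. Clusters, not genes, were tested because many H2 clusters carry several symbols.

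The members, gene lists and tests were chosen with earlier results of these data known. Any member could be named, with values per array for the genes of known role and for up to 4 of the largest called changes in each direction and comparison, and for other lists up to 4 of the largest called changes. Genes of the lists that matched no cluster (Fbn1, Insl3, Rhox5, Prm2, Igtp, Raet1e, Ulbp1, Rfxank, Ctsb and March1) were not used. Alternatives changed the scaling, the offset, the clusters tested, the variance model and the arrays used. Promoter windows are RefSeq's on GRCm38.p6, used for letters and names only.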

Additional observations from a re-analysis of the deposited data

How the results depend on the processing

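Of the 96 member changes called over the 5 comparisons, 59 held their call in every alternative in which the cluster was tested. A call was lost in 22 of the 96 with at least 1 of the 3 other scalings and in 27 without at least 1 array. The median log2 change of all clusters moved by under 0.1 with each scaling and comparison except median scaling at 1 week. There it moved by 0.107, and every member moved by 0.10 to 0.11 with it, so that changes relative to the median of all clusters were the same within rounding, and 22 members were called higher and 7 lower. Tapbp turned, to -0.01 at 1 week and -0.05 in GS cells against 0 weeks, with cyclic loess scaling.

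Counts that moved by over 1.5 times were these. At 1 week, 12 clusters were higher with the brightest cluster per gene (fewer members are tested, 44), and 2 were lower with the filter on dim clusters (36 members tested). At 2 weeks, 16 were lower with cyclic loess and 6 with the brightest cluster per gene. At 3 weeks, the 1 higher became 2 with quantile scaling, 3 with cyclic loess, 0 with the dim filter or the brightest cluster, 4 with a trended robust variance, 5 with only the groups compared and 5 with the replicate block, and the 2 lower became 5 with median scaling and 1 with cyclic loess. In GS cells against 3 weeks, 12 lower became 6 with only the groups compared and 20 with the replicate block. Against 0 weeks, 5 lower became 10 with cyclic loess and 0 with the dim filter. The cause was not tested, except where fewer members entered.

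Leaving out 1 array at a time, the clusters lower at 1 week numbered 5 to 10, with 5 without 0 weeks replicate 1 or 1 week replicate 2. Higher at 3 weeks were 0 to 5, with 0 without either 2 week array or 3 weeks replicate 1, 4 without 3 weeks replicate 2 and 5 without either GS cell array. Lower at 3 weeks were 1 to 3, with 1 without either 2 week array or 3 weeks replicate 2. Lower in GS cells than at 3 weeks were 6 to 21, with 6 without 3 weeks replicate 1 and 21 without GS cells replicate 1. Lower in GS cells than at 0 weeks were 4 to 11, with 11 without GS cells replicate 1. A group left with 1 array is assumed to vary like the others.

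Replicate numbers of different groups name no shared source. The difference between replicates 1 and 2 correlated between groups from -0.1 to 0.64 over 10 pairs of groups, 6 of them over 0.1. With the replicate block 24 further member changes passed and 0 of the 96 were lost. Signals near the lower quartile limit what can be seen in the class II and H2-M clusters.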

Other observations

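Clusters that pair a pathway symbol with another symbol lie outside the rule of selection, and 7 were found. The cluster of H2-T23 (Qa-1, the ligand of an inhibitory natural killer receptor) and C920025E04Rik read 125 and 112 at 0 weeks, 173 and 175 at 1 week, 123 and 129.9 at 2 weeks, 138 and 128 at 3 weeks, and 125 and 113 in GS cells. It was 0.55 ± 0.08 log2 (adjusted p = 0.0003) at 1 week and -0.46 ± 0.08 (adjusted p = 0.0013) at 2 weeks, with both 1 week arrays above all others. The H2-t9 and EG547347 cluster 10450699 read 257 and 249 at 0 weeks, 537 and 507 at 1 week, 393 and 394 at 2 weeks, 425 and 439.9 at 3 weeks, and 342 and 326 in GS cells and rose by 1.04 ± 0.06 log2 (adjusted p = 6.2e-07) at 1 week. A further cluster of these symbols, 10450733, read 81.0 and 75.1 at 0 weeks, 171 and 199 at 1 week, 78.5 and 80.1 at 2 weeks, 98.1 and 90.3 at 3 weeks, and 105 and 87.3 in GS cells and rose by 1.24 ± 0.11 log2 (adjusted p = 6.5e-06). The cluster of Psme2 and its pseudogene Psme2b-ps read 112 and 109 at 0 weeks, 311 and 413 at 1 week, 559.8 and 564 at 2 weeks, 397 and 472 at 3 weeks, and 399.8 and 472 in GS cells. It rose by 1.70 ± 0.14 log2 (adjusted p = 5e-06) at 1 week and 0.65 ± 0.14 (adjusted p = 0.0039) at 2 weeks, and signal of gene and pseudogene cannot be told apart.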
